A study of Mus musculus with 16 samples.

Results

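The 9 genes described here code for enzymes that make asparagine, alanine, aspartate, glutamine, glutamate and proline, or that stand beside these steps in mitochondria. They were taken by name as a list (Asns, Gpt2, Got1, Got2, Glul, Glud1, Pycr1, Aldh18a1 and Pck2), and their rows were found through the annotation of the array platform. Of the 9, 8 had a row with 1 gene symbol, among 19938 genes with such a row. Pycr1 had none and has no level here. The cells were N25/2, an immortalized line from embryonic mouse hypothalamus, cultured in DMEM with serum, antibiotics and an antifungal agent. They were kept in medium without amino acids (deprived) or in medium containing them (control). Whole-transcript arrays were run on 8 deprived and 8 control samples, with 4 of each at 5 h and 1 of each at 1, 2, 3 and 16 h. No strain, age or other agent is given for the line, and nothing says that a group's samples were separate cultures, so the spread behind each p-value may be technical.

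Cells that run short of amino acids hold uncharged transfer RNAs, which activate the kinase GCN2, and translation of the transcription factor ATF4 goes up. ATF4 binds composite C/EBP-ATF sites, also called amino acid response elements, in many genes of amino acid synthesis and transport, and asparagine synthetase is the textbook example. Most of these enzymes use or make glutamate or glutamine: aminotransferases pass the amino group of glutamate to alanine and aspartate, asparagine synthetase takes an amide group from glutamine, and proline is built on the carbon chain of glutamate. Pycr1 acts later in that path, and Pck2 acts on oxaloacetate.

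Promoter stretches just before the annotated gene start are shown for Pycr1 and the 5 genes higher in deprived cells at 5 h (below). There these genes can be compared for the core letters of the amino acid response element. The stretches are from RefSeq (GRCm38.p6) and run 5′ to 3′ on the strand of the gene. Their positions are chr6:7693210-7693349 (minus strand) for Asns, chr19:43524606-43524745 (minus) for Got1, chr14:55540126-55540265 (plus) for Pck2, chr11:120643749-120643888 (minus) for Pycr1, chr8:85492436-85492575 (plus) for Gpt2 and chr19:40588464-40588603 (minus) for Aldh18a1. Pck2 is an exception, as the gene annotation starts it at base 55540263 and its stretch thus includes the first bases of the gene. Its promoter positions count from a slightly later start. Capitals mark each match to TGATGNAA on either strand.
Asns: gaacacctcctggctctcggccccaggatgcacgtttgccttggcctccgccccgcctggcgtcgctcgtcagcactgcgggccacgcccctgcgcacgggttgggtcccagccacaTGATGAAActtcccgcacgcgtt
Got1: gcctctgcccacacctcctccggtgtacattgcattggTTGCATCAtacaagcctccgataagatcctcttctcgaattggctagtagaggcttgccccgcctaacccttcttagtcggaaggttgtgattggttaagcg
Pck2: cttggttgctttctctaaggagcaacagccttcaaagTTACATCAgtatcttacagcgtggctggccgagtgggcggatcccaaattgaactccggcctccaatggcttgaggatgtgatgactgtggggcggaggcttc
Pycr1: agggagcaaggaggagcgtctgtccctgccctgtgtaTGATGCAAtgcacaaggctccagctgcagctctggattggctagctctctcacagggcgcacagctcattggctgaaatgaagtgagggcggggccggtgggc
Gpt2: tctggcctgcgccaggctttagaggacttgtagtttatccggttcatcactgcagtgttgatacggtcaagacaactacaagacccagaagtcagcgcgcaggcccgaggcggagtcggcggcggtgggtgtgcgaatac
Aldh18a1: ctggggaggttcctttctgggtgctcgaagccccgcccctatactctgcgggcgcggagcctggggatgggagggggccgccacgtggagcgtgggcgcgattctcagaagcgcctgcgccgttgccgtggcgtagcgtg

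All 9 promoters had a window in the RefSeq table, which covers the bases before the start and a short stretch after it. TGATGNAA was found in 4 of the 9 windows, against 3.97% of all 32851 windows of that length. In Asns it began 23 bases before the annotated start and read TGATGAAA on the strand of the gene. Got1 held it on the opposite strand from base -102 to -95, where it reads TGATGCAA. Pck2 also held it on the opposite strand, as TGATGTAA from base -103 to -96, and Pycr1 on its own strand as TGATGCAA from base -103 to -96. Gpt2, Aldh18a1, Got2, Glul and Glud1 had no match, which says only that these letters are not in this window. The E-box CACGTG, which reads the same on both strands, was found in Aldh18a1 alone (7.15% of all windows). CCAAT, searched on both strands, was found in Got1, Glul, Pycr1 and Pck2 (37.4% of all windows), and TGACGTCA, the cAMP response element, in none of the 9 (1.79% of all windows). No match overlapped another of these motifs.

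Deposited values were log2 levels with array medians between 7.02 and 7.12, and no 2 arrays held identical values. Both 5 h arrays numbered 4 stood apart from the others of their group: the SD of a gene's deviation from the mean of the other 3 arrays was 0.358 for deprived array 4 and 0.383 for control array 4, against 0.147 to 0.230 for the other 5 h arrays. Of 8 neuron marker genes 6, and of 10 hypothalamic peptide genes 8, lay below the median gene in mean level, whereas all 6 mesenchymal markers lay above it. Of 5 neural progenitor markers 3, of 8 astrocyte markers 5, of 6 oligodendrocyte markers 6 and of 6 microglia markers 5 lay below it. The highest neuron, astrocyte and progenitor markers stood at percentiles 98.76, 97.35 and 91.12 of mean level over all genes. The lowest mesenchymal marker stood at 51.45. Levels of different rows depend on their probes, so these places are only a rough guide. Each change is given as the deprived minus the control log2 level, and SE is its standard error in limma. A gene passed when its adjusted p (limma, two-sided, Benjamini-Hochberg over all 19938 genes) was under 0.05. RNA came from whole cultures, so fewer cells of a type and less RNA per cell cannot be told apart.

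The first question was which of these enzymes differed after 5 h without amino acids. Deprived cells had 1.92-fold to 4.29-fold the control level of 5 genes. These were the genes for asparagine synthesis, alanine synthesis, the cytosolic aspartate aminotransferase, the first enzyme of proline synthesis and the mitochondrial phosphoenolpyruvate carboxykinase. The genes for the mitochondrial aspartate aminotransferase, glutamine synthetase and glutamate dehydrogenase did not pass. Of the 8 measured genes 5 were higher and none lower, where 4.11% of all genes passed (2.41% higher and 1.70% lower). All 4 deprived arrays lay above all 4 control arrays for the same 5 genes, a pattern that 5.15% of all genes showed. None of the 8 lay wholly below, as 5.38% of all genes did.

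Asns codes for asparagine synthetase, which makes asparagine from aspartate with the amide group of glutamine. Its log2 level was 12.84, 12.80, 12.70 and 13.13 on deprived arrays 1 to 4, against 12.10, 11.88, 11.79 and 11.65 on control arrays 1 to 4. The groups did not overlap, with deprived array 4 the highest and control array 4 the lowest. The difference was 1.01 (SE 0.12, n = 4 arrays per group; adjusted p = 0.00178 in limma), or 2.02-fold. It was 0.86 without both arrays numbered 4.

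Gpt2 codes for the mitochondrial alanine aminotransferase, which converts pyruvate and glutamate to alanine and 2-oxoglutarate and back. Deprived arrays 1 to 4 gave log2 levels of 10.69, 10.65, 10.61 and 10.73, against 8.80, 8.54, 8.42 and 8.51 on the controls. The deprived arrays lay close together, far above the highest control. At 2.10 (SE 0.09, adjusted p = 1.74e-05 in limma) the difference was the 7th highest of all genes. The paralogue Gpt, which codes for the cytosolic enzyme, had a mean level of 7.29 (SD 0.07) in deprived and 7.25 (SD 0.09) in control cells (n = 4 each), a difference of 0.03 with a 95% interval of -0.14 to 0.20. Its mean over all arrays (7.22) was close to the array medians, and it was not shown to be above background.

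The pair of aspartate aminotransferases, which carry amino groups between glutamate and oxaloacetate on the 2 sides of the malate-aspartate shuttle, were both at high levels. Got1, the cytosolic enzyme, had log2 levels of 12.36, 12.39, 12.19 and 12.16 on deprived arrays 1 to 4, against 11.28, 11.09, 11.09 and 10.83 on control arrays. Its groups did not overlap, and the difference was 1.20 (SE 0.11; adjusted p = 0.000326 in limma), or 2.30-fold. Got2, the mitochondrial enzyme, had 13.29, 13.23, 13.26 and 13.00 on deprived arrays, against 13.37, 13.26, 13.27 and 13.00 on control arrays. Those groups lay on top of each other, with array 4 lowest in both. The Got2 difference was -0.03 (SE 0.10), with a 95% interval of -0.26 to 0.20 (adjusted p = 1.00 in limma). A further row named Got2 gave -0.04.

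For proline, Aldh18a1 codes for the enzyme that turns glutamate into the precursor of pyrroline-5-carboxylate, and Pycr1 for a reductase that completes the path. Aldh18a1 had log2 levels of 12.29, 12.19, 12.19 and 12.34 on deprived arrays 1 to 4, against 11.56, 11.39, 11.39 and 10.90 on control arrays. Control array 4 was the lowest by a clear margin, and the groups did not overlap. The difference was 0.94 (SE 0.13; adjusted p = 0.00415 in limma), or 1.92-fold, and 0.77 without both arrays numbered 4. Aldh4a1, which codes for the mitochondrial dehydrogenase of proline breakdown, had a mean of 7.32 (SD 0.12) in deprived and 7.72 (SD 0.11) in control cells. It was lower by 0.40 in deprived cells (SE 0.09, adjusted p = 0.0392 in limma). That call was lost when any 1 of 7 of the 8 arrays was left out, all but control array 4, with adjusted p between 0.0567 and 0.137, while the difference over all 8 such fits stayed between -0.45 and -0.34.

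Pck2, the mitochondrial phosphoenolpyruvate carboxykinase, makes phosphoenolpyruvate from oxaloacetate. Deprived arrays 1 to 4 had log2 levels of 10.92, 10.87, 10.79 and 11.03, against 9.87, 9.70, 9.89 and 9.94 on control arrays. The spread was small in both groups, which did not overlap, and the difference was 1.05 (SE 0.09; adjusted p = 0.000187 in limma), or 2.07-fold. The cytosolic paralogue Pck1 had a mean of 6.45 (SD 0.06) in deprived and 6.51 (SD 0.21) in control cells, a difference of -0.06 with a 95% interval of -0.30 to 0.18. Its mean over all arrays (6.48) lay below every array median, and it too was not shown to be above background.

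Glul codes for glutamine synthetase, which adds ammonia to glutamate, and in brain it marks astrocytes. Its log2 levels were 7.58, 7.67, 7.70 and 8.64 on deprived arrays 1 to 4, against 8.25, 8.18, 7.96 and 9.36 on control arrays. Array 4 was far above the other 3 in both groups, and the groups overlapped only through deprived array 4. The difference was -0.54 (SE 0.32) with a 95% interval of -1.26 to 0.18 and missed the threshold (adjusted p = 0.602 in limma). Fitting the array number as a block, it passed (-0.54; adjusted p = 0.000742 in limma), as it did without both arrays numbered 4 (-0.48; adjusted p = 0.00315 in limma). With the block 8.22% of all genes passed as higher and 10.0% as lower, and without both arrays 6.34% and 7.17%. A further row named Glul gave -0.48. Of 8 astrocyte markers 5 lay below the median gene in level, the mean of the list was 7.49 to 7.68 on deprived and 7.63 to 7.74 on control arrays at 5 h, and 1 of the 8, Gja1, was lower (-0.76, SE 0.08; adjusted p = 0.00102 in limma). The other markers of that list lay between -0.12 and 0.18, with a list median of -0.06. The part of the astrocyte markers in the Glul values was not tested.

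Glud1 codes for glutamate dehydrogenase, the mitochondrial enzyme between glutamate and 2-oxoglutarate. Its log2 levels were 10.87, 10.77, 10.78 and 10.65 on deprived arrays 1 to 4, against 11.13, 11.02, 10.95 and 10.75 on control arrays. Each deprived array lay below the control array of its number, but the groups overlapped. The difference of -0.20 (SE 0.10, 95% interval -0.41 to 0.02) also missed it (adjusted p = 0.426 in limma). With the block its adjusted p was 0.0467 in limma, and without both arrays numbered 4 it was 0.0615.

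**Figure D1:**
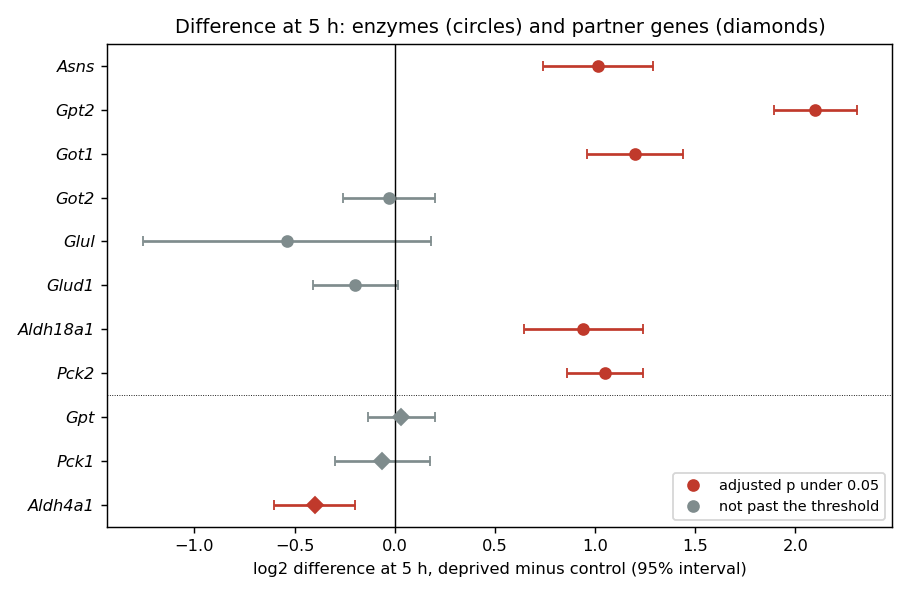
Differences in log2 level at 5 h, deprived minus control, with 95% intervals of limma's fit (n = 4 arrays per group). Circles are the 8 enzyme genes and diamonds the partner genes Gpt, Pck1 and Aldh4a1. Asns, Gpt2, Got1, Aldh18a1 and Pck2 lie to the right of 0 and Aldh4a1 to the left, and the intervals of the others include 0.

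Whether 2 related genes changed unequally was asked of the ratio of their levels within each array, for 4 pairs. The log2 ratio of Got1 to Got2 was -0.92 (SD 0.11) in deprived and -2.15 (SD 0.05) in control cells, a shift of 1.23. That of Aldh18a1 to Aldh4a1 was 4.93 (SD 0.18) in deprived and 3.59 (SD 0.19) in control cells, a shift of 1.34. The difference was 0.94 for Aldh18a1 alone and -0.40 for Aldh4a1 alone. Aldh4a1 (mean 7.57 over all arrays, against array medians up to 7.12) was not tested against background. The ratios of Gpt2 to Gpt and of Pck2 to Pck1 shifted by 2.07 and 1.11. With Gpt and Pck1 not shown to be above background, these values restate the differences of Gpt2 and Pck2. They are no test of unequal change. In each pair all 4 deprived ratios lay above all 4 control ratios, which gave p = 0.0286 in the exact two-sided permutation test, the smallest that 4 arrays against 4 allow, and 0.0286 after adjustment over the 4 pairs. Paired by array number, the exact sign-flip test gave p = 0.125 for each pair, the smallest that 4 array pairs allow, so the call is lost there. Such ratios set no level of one gene against another.

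Of 47 further genes listed for the same pathways, 43 were measured. None was higher at 5 h and 1, Aldh4a1, was lower, where 2.41% of all genes passed as higher and 1.70% as lower. The median change of the 43 was -0.06, against 0.98 for the 8 enzymes and -0.01 for all genes. Levels of the 43 were not tested against background, and several had means below every array median, the lowest at 5.31. Means of the 3 alanine genes were 5.64 to 7.22, whereas the lowest mean among the 8 enzymes was 8.06. A lack of change in such low genes cannot be told from a lack of signal. These 43 were 10 other genes of aspartate and asparagine (-0.37 to 0.31), 3 of alanine (-0.04 to 0.03), 12 of glutamate and glutamine (-0.39 to 0.26), 9 of proline and ornithine (-0.40 to 0.01) and 9 around phosphoenolpyruvate and malate (-0.37 to -0.01). With the array number as a block, 2 of the 43 were higher and 10 lower, against 8.22% and 10.0% of all genes. Among enzymes of neighbouring pathways, 7 of 15 serine, glycine and one-carbon genes were higher and none lower, with a median of 0.31. No gene of 21 for branched-chain breakdown passed (median -0.07, range -0.35 to 0.97), although the block called 4 as higher and 2 as lower. The highest of them was Bcat1 (0.97, SE 0.30, adjusted p = 0.129 in limma). The lists were not tested against each other, and they were written with results of these arrays known.

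**Figure D2:**
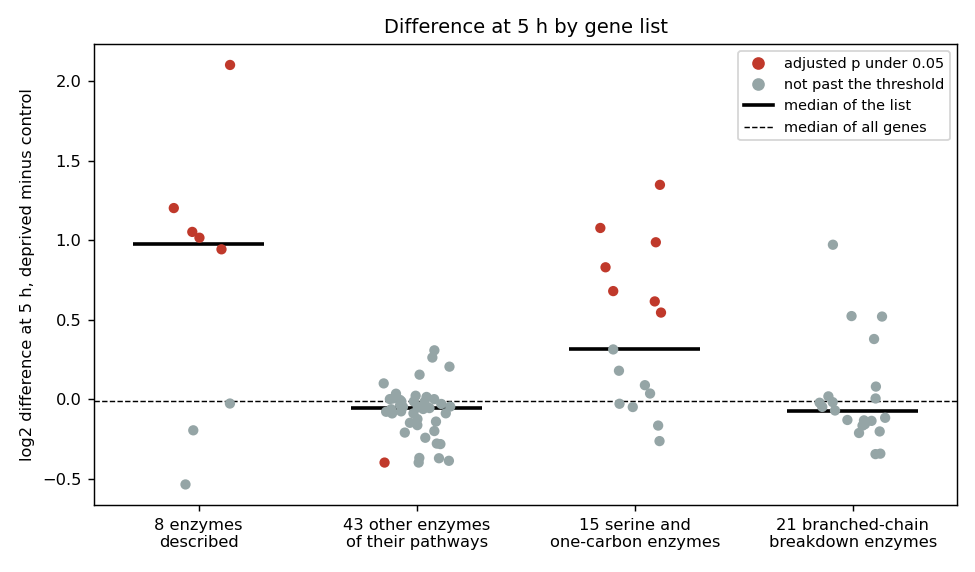
Difference in log2 level at 5 h, deprived minus control, of each measured gene in 4 lists, with 1 point per gene. Black bars are list medians (0.98, -0.06, 0.31 and -0.07 from left to right), the dashed line is the median of all genes (-0.01), and red points passed an adjusted p of 0.05 in limma.

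The next question was when these differences arose. At 1, 2, 3 and 16 h there was 1 array per group, so the differences at those times have no replicate check and no p. None of the 8 genes differed by 1 or more at 1, 2 or 3 h. Over all genes 0.0201% were higher and 0.105% lower by that much at 1 h, 0.0602% and 0.120% at 2 h, and 0.0903% and 0.0451% at 3 h. At 16 h Asns, Gpt2, Got1 and Aldh18a1 were higher by at least 1 and none lower, where 1.96% of all genes were higher and 2.97% lower. The median difference of the 8 genes ran through -0.10, 0.13, 0.30, 0.98 and 1.19 at 1, 2, 3, 5 and 16 h, against medians of all genes between -0.04 and 0.02. Some marker lists moved as well: at 16 h the median difference was -0.72 for 5 neural progenitor, -0.62 for 6 mesenchymal and -0.40 for 8 astrocyte markers. For neuron, oligodendrocyte, hypothalamic peptide and microglia markers it was -0.18, -0.14, -0.07 and -0.02. At 5 h the progenitor marker Nes was lower (-0.69, SE 0.12; adjusted p = 0.00923 in limma), and the mean of its list was 8.07 to 8.37 on deprived and 8.26 to 8.66 on control arrays. The other markers of the progenitor list lay between -0.18 and -0.045 at 5 h. The part of these marker shifts in the enzyme values was not tested.

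Gpt2 was higher by 0.10, 0.57 and 0.85 at 1, 2 and 3 h, and by 2.38 at 16 h. Its level in deprived cells was 9.38, 9.86 and 10.21 on the arrays of 1, 2 and 3 h, had a mean of 10.67 (SD 0.05, n = 4) after 5 h and was 10.91 after 16 h. In control cells it was 9.28, 9.29 and 9.36 at 1, 2 and 3 h, with a mean of 8.57 (SD 0.16, n = 4) after 5 h and 8.53 after 16 h. The gap at 5 h thus held both a level 1.29 above the 1 h array in deprived cells and one 0.71 below it in control cells.

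Against the single 1 h arrays, which already differed by -0.17, Got1 had moved further by 5 h in control than in deprived cells. With 1 array per group at 1 h, this split was not tested. In deprived cells it stood at 11.79, 11.98 and 11.98 at 1, 2 and 3 h, 12.28 (SD 0.11) at 5 h and 12.68 at 16 h. In control cells it stood at 11.96, 11.79 and 11.60 at 1, 2 and 3 h, 11.07 (SD 0.19) at 5 h and 11.07 at 16 h. The 5 h level was 0.49 above the 1 h array in deprived and 0.88 below it in control cells. At 16 h the level was 0.89 above it in deprived and 0.89 below it in control cells, an even split. The difference between the groups was -0.17, 0.19 and 0.37 at 1, 2 and 3 h, and 1.61 at 16 h.

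Asns and Aldh18a1 ran a similar course. The Asns difference was -0.16, 0.24 and 0.48 at 1, 2 and 3 h, and 1.53 at 16 h. Its deprived level was 12.04 at 1 h and 12.86 at 3 h, about where it stood at 5 h (12.87), and 13.11 at 16 h, while its control level, 12.20 at 1 h and 12.38 at 3 h, was down to 11.85 by 5 h and 11.57 by 16 h. For Aldh18a1 the difference was -0.03, 0.07 and 0.23 at 1, 2 and 3 h, and 1.53 at 16 h. Its level at 16 h was 0.73 above the 1 h array in deprived and 0.83 below it in control cells.

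Pck2 differed from these 4. It was already higher by 0.37 at 1 h, then by 0.43 at 2 h and 0.66 at 3 h, and at 16 h by 0.85, less than the 1.05 of 5 h. Its deprived level was 10.45 at 1 h, 10.90 (SD 0.10) at 5 h and 10.68 at 16 h, and its control level only ranged over 0.29 between times. All 5 deprived levels lay above all 5 control levels. This also held for Gpt2, though narrowly (lowest deprived level 9.38 at 1 h, highest control level 9.36 at 3 h).

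Got2 differed by between -0.09 and 0.02 at all 5 times, within the SD of its 5 h arrays (0.13 in deprived and 0.16 in control cells). Glud1 was lower in deprived cells at each time, with differences of -0.27, -0.25, -0.17, -0.20 and -0.35 at 1, 2, 3, 5 and 16 h. The Glul difference was -0.11, -0.36 and -0.43 at 1, 2 and 3 h and -0.18 at 16 h. With 5 h array 4 set aside, the Glul level in the row used was highest at 3 h (8.13 in deprived and 8.56 in control cells). The further row was then highest at 1 h in deprived cells (8.08, against 7.87 at 3 h). In control cells it was highest on 5 h array 2 (8.29, against 8.27 at 3 h). The Glul rows disagreed early on: averaged over both rows, the difference was 0.01 at 1 h and -0.19 at 2 h.

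**Figure D3:**
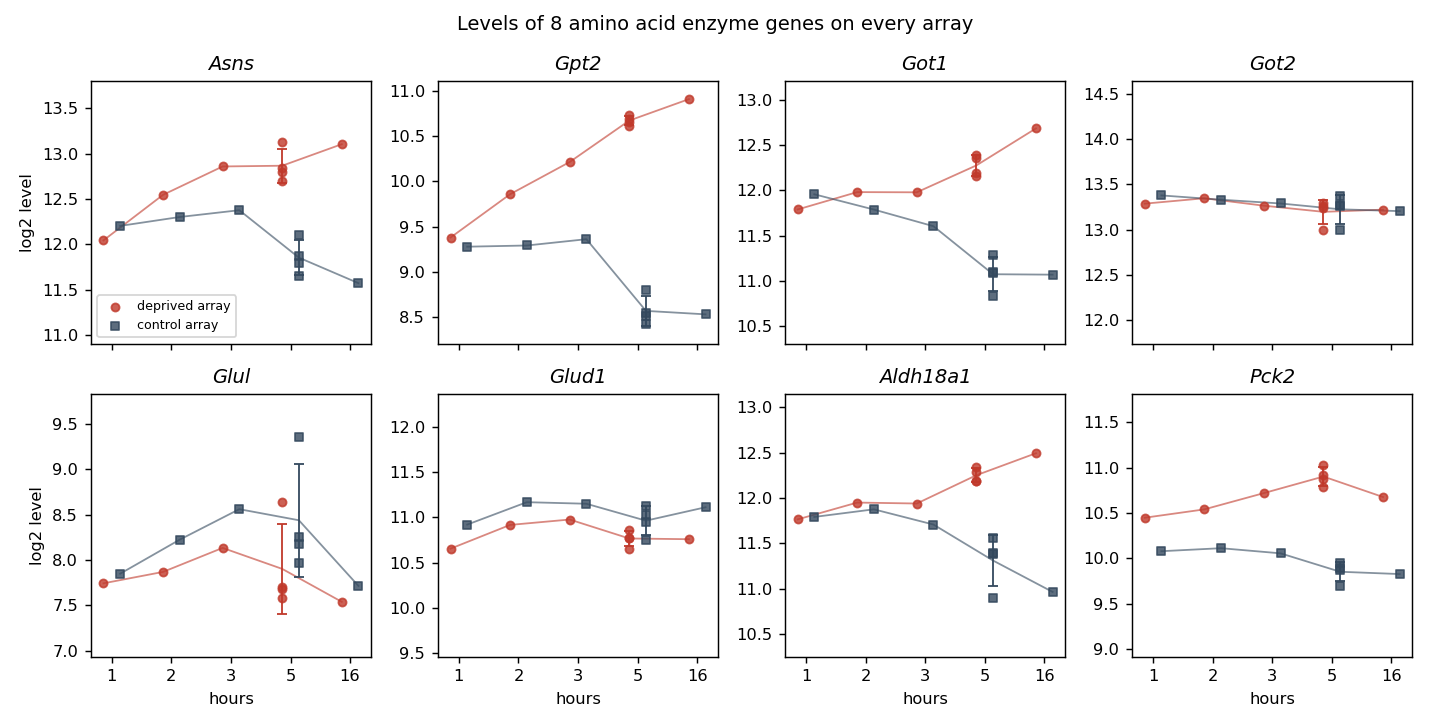
Log2 level of the 8 genes on each of the 16 arrays against hours, with deprived arrays as circles and control arrays as squares. Lines join the means, bars at 5 h are SD (n = 4), all panels span the same height, and hours are evenly spaced rather than to scale. Asns, Gpt2, Got1 and Aldh18a1 spread apart over time in both directions, Pck2 is apart at each time, and Got2 is not.

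**Figure D4:**
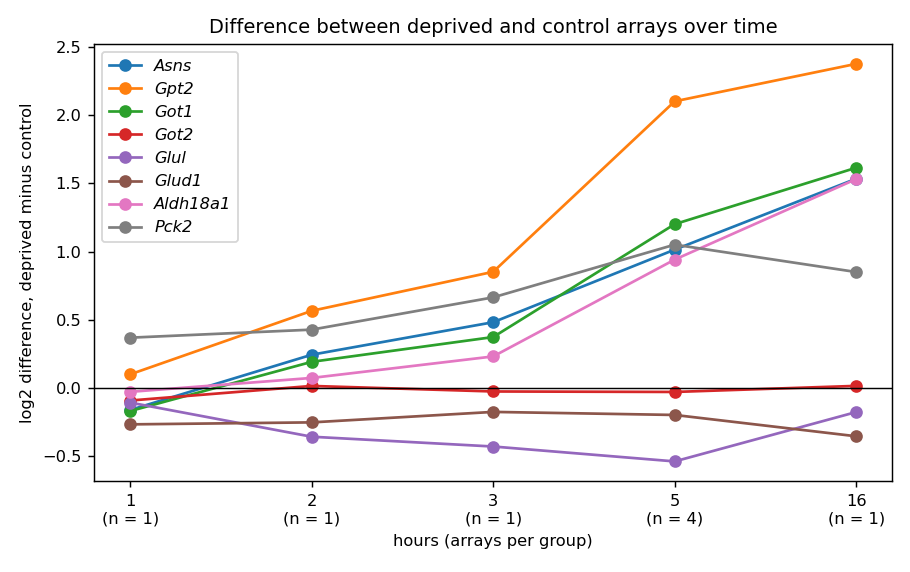
Difference in log2 level, deprived minus control, at each time for the 8 genes (n = 4 arrays per group at 5 h and 1 elsewhere), with hours evenly spaced rather than to scale. Gpt2 reaches 2.38 at 16 h, Asns, Got1 and Aldh18a1 reach 1.53 to 1.61, Pck2 peaks at 5 h with 1.05, and Got2 stays between -0.09 and 0.02.

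A slope over log2 hours in each treatment was fitted in limma to all 16 arrays, a test chosen after the values were seen. The slopes differed between deprived and control cells for 4 of the 8 genes, where 0.707% of all genes passed as higher and 0.386% as lower. Per doubling of time the difference of slopes was 0.68 (SE 0.10; adjusted p = 0.00685 in limma) for Gpt2, 0.51 (SE 0.08; adjusted p = 0.00727) for Got1, 0.45 (SE 0.09; adjusted p = 0.0182) for Asns and 0.44 (SE 0.08; adjusted p = 0.0113) for Aldh18a1. For Pck2 it was 0.18 (SE 0.07; adjusted p = 0.239). The same 4 genes had rising slopes in deprived cells, between 0.20 and 0.42, where 4.88% of all genes did. None of these 4 passed without the 1 h arrays (adjusted p = 0.308 for Asns, 0.0609 for Gpt2, 0.0993 for Got1 and 0.171 for Aldh18a1), where the Asns slope was 0.16 in place of 0.25. Got1 and Aldh18a1 also did not pass without the 16 h arrays (adjusted p = 0.0951 and 0.183). In control cells the slopes of these 4 were between -0.28 and -0.20 and none passed (lowest adjusted p = 0.059, for Got1; 0.246% of all genes passed, 0.226% with a falling slope). Without both arrays numbered 4 the control slopes of Got1 (-0.26; adjusted p = 0.00802) and Aldh18a1 (-0.23; adjusted p = 0.0054) passed, where 1.08% of all genes passed as falling. The single arrays at the ends also decided other calls: the difference of slopes no longer passed without the 1 h arrays for Gpt2 (adjusted p = 0.0501), Got1 (0.0596) and Asns (0.0704), nor without the 16 h arrays for Asns (0.12) and Aldh18a1 (0.147).

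The mean difference over 1, 2, 3 and 16 h, fitted in limma with a term for each time, passed for none of all 19938 genes (0.00%), while 1244 (6.24%) had an unadjusted p under 0.05. Among the 8 enzymes Pck2 had the lowest unadjusted p (0.000971; mean difference 0.58, SE 0.10; adjusted p = 0.492 in limma). Gpt2 had the largest mean difference (0.97, SE 0.35; adjusted p = 0.792). That value rested on the 16 h arrays, without which it was 0.51 for Gpt2 and 0.49 for Pck2. In this fit the error is the spread of the differences between times, so a difference that grows with time widens its own SE. The lack of calls therefore does not show a lack of change.

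For each enzyme gene higher at 5 h, the closest genes by their 5 differences over time were found. Closeness was the root mean square distance over 5 times, among all genes. Asns and Got1 were close to each other (0.106). For Got1 the closest gene was Tars (0.0923), followed by Cxadr (0.104), which was also next for Asns (0.125), before Zfp945 (0.141). Aldh18a1 had the closest neighbours, Leprotl1 (0.036), Bcat1 (0.047) and Shmt2 (0.0573). Gpt2 had none as close, with Gpr141 at 0.227, Chka at 0.258 and Slc6a9 at 0.267. Pck2 was nearest to Kdm6b (0.137), Tmem268 (0.166) and Nr1d2 (0.175). Since all differences at a time share the same arrays, these distances are a description.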

How the data were processed

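From each sample 250 ng of total RNA was amplified, labelled with biotin and run on an Affymetrix array, per the labels' protocols. The authors deposited log2 levels. RMA and limma are listed, with no version, in the submitters' processing notes. The table has 35556 rows and 16 columns; other settings are not given in the sources used here, and values were used as deposited. Rows were named through the platform annotation (21789 rows with 1 symbol), symbols were updated through Entrez identifiers with RefSeq (GRCm38.p6; 21698 matched), and of 999 genes with several rows the one with the highest mean was kept. Rows with several symbols or none were left out.

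Samples were grouped by treatment and hours from their titles. limma 3.58.1 in R 4.3.3 (lmFit, eBayes, Benjamini-Hochberg over 19938 genes) compared 4 deprived with 4 control arrays at 5 h. Tables and plots used Python 3.11.15 with pandas 2.3.3 and matplotlib 3.10.9. Fits were tested on simulated data. The number of arrays limits the precision. Of 6 gene pairs planned for ratios, 4 were run, and the others are not reported here.

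The members and lists were chosen with earlier results of these data known. Named genes are the 9 enzymes, the pair partners and other pathway genes that passed at 5 h. The 3 nearest genes of each enzyme higher at 5 h are also named. The choice of the markers Gja1 and Nes was made with their values in view.

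Both groups carry numbers 1 to 4 at 5 h. Deviations from the group means correlated between arrays of the same number with 0.354, 0.584, 0.467 and 0.896. Among numbers 1 to 3, arrays of different number correlated with 0.133 to 0.680, so these values do not set the same numbers apart. The numbers were taken as pairs, and a block was fitted as an alternative. This pairing rests on number 4 (0.193, -0.003 and -0.200 among numbers 1 to 3 alone). Other alternatives were quantile normalization, median centring, genes above the median level, averaging all rows of a gene, fitting all 16 arrays, another variance prior, array weights, unnamed rows, both arrays numbered 4 left out, and each array or time left out.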

Additional observations from a re-analysis of the deposited data

Results flagged for a closer look

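Glul on deprived array 4 at 5 h (8.64) lay far above the other 3 deprived arrays (7.58 to 7.70), and control array 4 (9.36) was also the highest of its group. Of 16 groups of 4 arrays examined, 1 was flagged, and chance flags about 5% of groups.

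The course over time differed between treatments for 4 genes, by the difference of slopes per doubling of time in limma: 0.45 for Asns, 0.68 for Gpt2, 0.51 for Got1 and 0.44 for Aldh18a1. At 1 h the single deprived array lay below its control for 3 genes whose deprived arrays were all higher at 5 h, by -0.16 for Asns, -0.17 for Got1 and -0.0271 for Aldh18a1. These reversals were not tested, having 1 array per group at 1 h.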

How the results depend on the processing

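The 5 genes higher at 5 h (Asns, Gpt2, Got1, Aldh18a1 and Pck2) kept their direction and passed under all 18 alternatives run. Fitting all 16 arrays could not change these calls, because groups at other times have 1 array each and add no spread. Averaging rows could not change the differences of the 5 genes, which have 1 row each. Their adjusted p in limma was at most 0.0227 (Aldh18a1, 1 array left out). Over the arrays left out in turn the differences were 0.93 to 1.10 for Asns, 2.05 to 2.18 for Gpt2, 1.12 to 1.27 for Got1, 0.81 to 1.02 for Aldh18a1, 1.00 to 1.09 for Pck2, -0.10 to 0.04 for Got2, -0.78 to -0.23 for Glul and -0.27 to -0.14 for Glud1. Glul passed with the replicate block (-0.54), array weights (-0.51) and without both arrays numbered 4 (-0.48), and Glud1 with the block (-0.20) and array weights (-0.21); the block changed no other call among the 8 genes. Got2, near 0, changed sign without control array 1 (0.02) and without deprived array 4 (0.0377), and its mean over the other times did with quantile normalization (0.0014) and without the 1 h arrays (0.0026). Gpt turned with array weights (-0.0109), with both arrays numbered 4 left out (-0.0025) and without control array 1 (-0.0006; 0.0653 at the highest without control array 3). Pck1 turned without control array 3 (0.0062; -0.1545 at the lowest without control array 4). Aldh4a1 (-0.40) did not pass with a trended, robust prior (adjusted p = 0.0618) or unnamed rows (0.0674). Counts over all genes at 5 h were 820 in the main setting, 3632 with the block, 2695 without both arrays numbered 4, 5485 with array weights and 382 to 1066 with 1 array left out, among them 486 without control array 1, 424 without control array 2, 521 without control array 3, and 382, 424 and 431 without deprived arrays 1, 2 and 3. For the mean over the other times, 35 genes passed without the 16 h arrays, against 0. Paired by number, the exact sign-flip permutation test cannot go below p = 0.125, which all 4 ratio shifts had (2.07, 1.23, 1.11 and 1.34).

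For the difference of slopes, the counts over all genes were 218 in the main setting, 736 without both arrays numbered 4, 384 with quantile normalization and 46 without the 16 h arrays. Without the 1 h arrays 1 of the 8 genes passed, and the slopes that no longer did were 0.44 (Asns), 0.64 (Gpt2) and 0.50 (Got1). Without the 16 h arrays 2 passed, and those lost were 0.52 (Asns) and 0.47 (Aldh18a1). Glud1 changed sign with median centring (0.0094) and without 16 h (0.0309), and Glul without 1 h (0.0634). In deprived cells 1956 genes had a slope, 3062 without both arrays numbered 4, 1122 without 1 h and 728 without 16 h. None of the 8 passed there without 1 h (0 genes; 0.16 for Asns, 0.34 for Gpt2, 0.25 for Got1, 0.20 for Aldh18a1), and without 16 h Got1 (0.22) and Aldh18a1 (0.22) were lost and Pck2 (0.21) passed. Near 0, Glud1 turned with centring (0.01), without both arrays numbered 4 (0.0032) and without 16 h (0.0127), and Glul without 16 h (0.0542). In control cells 49 genes had a slope, 303 without both arrays numbered 4, 15 without 1 h and 207 without 16 h. There 1 of the 8 passed with centring (Got1, -0.29), 2 without both arrays numbered 4 (Got1, -0.26, and Aldh18a1, -0.23) and 2 without 16 h (Gpt2, -0.36, and Got1, -0.42), and signs near 0 turned for Glud1 (-0.0255 without 1 h, -0.0181 without 16 h) and Glul (0.23 without 16 h). The cause of these changes was not tested. The slope fits were added after the data were seen.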
